A study of Ovis aries with 6 samples.

Results

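The genes described here are the nuclear genes of oxidative phosphorylation in cells shed into sheep milk. They were chosen by symbol alone: the NDUF, UQCR and ATP5 series, the SDH genes, CYC1, and COX4 to COX8. Of 11285 gene symbols that could be matched to the deposited transcripts, 55 belonged to this set, each represented by its transcript of highest mean abundance. They comprised 30 structural subunits of complex I, 8 complex I assembly factors, 2 subunits of complex II, 1 of complex III, 1 of complex IV, 12 of complex V, and NDUFA4L2, a paralog of the complex IV subunit NDUFA4. A further 15 symbols that the choice would take had no matched row and are not analysed here, so complexes II, III and IV were sampled by very few of their genes. Of the 55 genes, 54 reached a mean of 1 RPKM over the 6 libraries and were tested.

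Oxidative phosphorylation makes most of the ATP of an aerobic cell in the inner mitochondrial membrane. Complex I takes electrons from NADH and complex II takes them from succinate. Both pass them to ubiquinone, and complexes III and IV carry them on to oxygen while protons are pumped out. Complex V, the ATP synthase, lets the protons return and makes ATP. Complexes I, III, IV and V also contain subunits encoded in mitochondrial DNA, which are not part of this set. In the lactating mammary gland these complexes supply the energy for the synthesis of milk fat, protein and lactose, while neutrophils, which are common in milk, rely mainly on glycolysis.

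RNA came from the somatic cells of milk, a mixture of shed mammary epithelium and white blood cells, pelleted here from 250 ml per sample. The control group was 3 ewes of the Comisana breed at day 90 of lactation, fed hay and a commercial concentrate for 3 weeks. The linseed group was the same 3 animals after 3 further weeks on grass, hay and a concentrate in which 20% of dry matter was extruded linseed, a feed rich in alpha-linolenic acid. Each group therefore had 3 libraries, and sheep 1, 2 and 3 were each sampled under both diets. Every ewe received linseed after the control period, so diet and time cannot be told apart. The comparison addresses how the transcripts of these cells differed after the supplement.

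The table held RPKM, the reads of a transcript divided by its length in kilobases and by the size of the library. The library totals recovered from these values were 22644050, 8805705 and 10602801 reads in controls of sheep 1, 2 and 3, and 4941935, 5978026 and 19912996 reads with linseed. Linseed libraries of sheep 1 and 2 were thus the shallowest. Milk protein transcripts took 4.38% to 47.8% of the reads in controls and 1.28% to 30.2% with linseed, which leaves a varying remainder for all other genes. In bulk RNA of mixed cells, fewer cells of a type and less RNA per cell cannot be told apart. Markers of mammary epithelium (7 of 14 matched) summed to 478 to 1180 RPKM in controls and 110 to 1420 with linseed, the lowest being linseed sheep 3. Those of macrophages (10 of 16) summed to 138 to 1250 and 798 to 2050 RPKM, those of T and NK cells (9 of 16) to 9.59 to 688 and 73.3 to 173, and those of B and plasma cells (8 of 8) to 1.27 to 25.8 and 7.51 to 28.6. Neutrophil markers (6 of 12) summed to 862 to 1570 RPKM in controls and 2320 to 3450 with linseed, and this was the marker list whose sums did not overlap between groups. In every library but control sheep 1, the sum was carried mainly by S100A8 (195 to 440.0 RPKM in controls, 1067 to 1352 with linseed) and S100A9 (222 to 300.3, and 934 to 1790). In control sheep 1 most of it was LTF, with 1146 of 1570 RPKM. LTF was lower with linseed in sheep 1 and 3 (1146 to 267 and 50.3 to 4.75 RPKM) and higher in sheep 2, and CXCR2, FCGR3A, MMP9 and LTF each overlapped between groups. Single markers of other lists also lay apart. Of the epithelial markers, CD24 (133 to 287 RPKM in controls, 29.6 to 51.7 with linseed) and BTN1A1 (52.8 to 165, and 8.38 to 50.6) were lower. Of the macrophage markers, TREM2 (6.75 to 83.0, and 258 to 304) and C1QA (1.67 to 53.3, and 64.5 to 80.9) were higher. The other markers of both lists overlapped. Erythrocyte markers (3 of 7) stayed at or below 0.4 RPKM, with HBM and ALAS2 at 0 in every library. The part of these cell types in the results below was not tested.

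Most genes of the respiratory chain and ATP synthase were more abundant after linseed in sheep 1 and sheep 3, while in sheep 2 about as many were lower as higher. On the log2(RPKM + 1) scale, 42 of the 54 tested genes were higher in sheep 1, 26 in sheep 2 and 51 in sheep 3, with median changes of 0.94, -0.04 and 1.37. The largest changes were those of 7 complex I subunits (NDUFS8, NDUFA13, NDUFB7, NDUFA3, NDUFB10, NDUFB11 and NDUFA10) and of the ATP synthase subunit ATP5F1D, each with 3.96 to 5.94 times the mean RPKM of the controls. On the log2(RPKM + 1) scale the largest difference in the other direction was that of SDHD, a membrane anchor of complex II, which had 0.421 times the control mean RPKM. By the ratio of means it was the scarce assembly factor NDUFAF2, at 0.292. The median change over the 54 genes was 0.64, against -0.12 over all 15891 tested transcripts.

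None of the 54 genes passed the test of limma, which was set at a Benjamini-Hochberg adjusted p of 0.05 over all tested transcripts. The smallest adjusted p, for these genes and for all transcripts, was 0.263. The background was the same: 0.0% of tested transcripts passed as higher and 0.0% as lower, while 2464 had an unadjusted p under 0.05. At that unadjusted level 11 genes of the set were higher (20.4%, against 8.5% of all tested transcripts) and 1, SDHD, was lower (1.85%, against 7.0%). With the sheep as a block in the model, 2 genes passed as higher, NDUFS8 (adjusted p = 0.0461 by limma) and NDUFA13 (0.0496), or 3.7% of the set against a background of 1.28%. None passed as lower, against 1.34% of all tested transcripts. These 2 calls did not hold when the block was combined with another scaling of the libraries, a length correction or a fit to recovered reads: the smallest adjusted p of any gene of the set was then 0.0599 to 0.102 by limma.

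Counted by sheep, 24 of the 54 genes (44.4%) were higher with linseed in all 3 animals, against 23.0% of tested transcripts, and 2 (3.7%), the assembly factors NDUFAF4 and NDUFAF7, were lower in all 3, against 26.2%. In 21 genes (38.9%) every linseed library lay above every control library, against 13.3% of tested transcripts, and in 0 every linseed library lay below, against 7.83%. The first of these counts fell to 15 of 54 once milk proteins no longer counted towards the library total (background 19.2%). With the same change the count of 21 fell to 7 of 54 (background 10.3%). It fell to 9 of 54 with median-of-ratios scaling (12.7%) and to 8 of 54 with quantile normalization (14.0%). Under these 3 scalings the share of the set without overlap was thus close to that of all tested transcripts. The 7 genes whose groups stayed apart under each of these and under a length correction were NDUFA10, NDUFA13, NDUFB7, NDUFB10, NDUFS8, NDUFAF3 and ATP5F1D. How many of all tested transcripts stayed apart in this way was not counted.

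Genes of oxidative phosphorylation are short and abundant, and both properties moved with the difference between diets across the table. The 54 tested transcripts had a median length of 782 nt, against 2297 nt over all tested transcripts. Across the 54, Pearson's r with the log2 change was -0.41 for log2 length and 0.46 for log2 mean RPKM, and across all tested transcripts -0.32 and 0.20 (a description over transcripts that share libraries). Among the 508 tested transcripts between the quartiles of the set in both length (580.5 to 1349.5 nt) and mean RPKM (32.7 to 134.8), a window chosen after the values were seen, the median change was 0.78. Of these, 51.4% were higher in all 3 sheep and 39.4% had no overlap with linseed above. These shares are no lower than the 44.4% and 38.9% of the oxidative phosphorylation genes. Many of those genes lie outside these ranges, so the 508 transcripts match only the middle of the set. After a correction for transcript length the median of the set was 0.36 and that of all tested transcripts was -0.00.

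**Figure D1:**
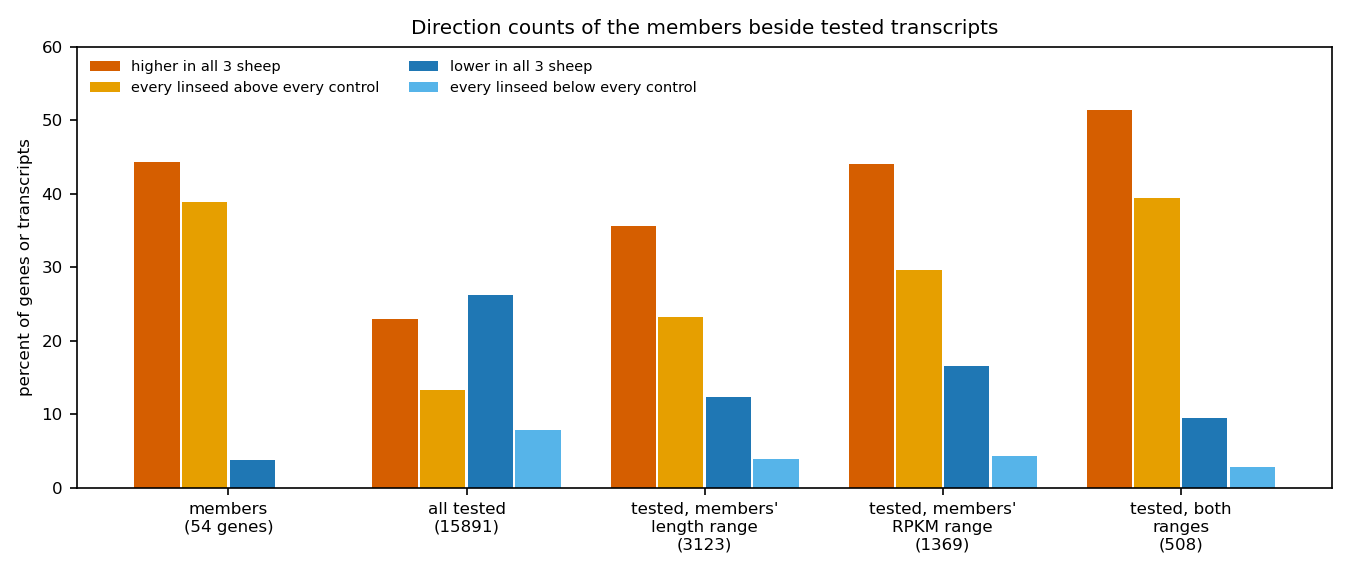
Percent of genes or transcripts (vertical axis) that were higher or lower with linseed in all 3 sheep, and whose linseed libraries all lay above or below the controls, for the 54 tested genes of oxidative phosphorylation, all 15891 tested transcripts, and tested transcripts within the quartiles of the set in length, in RPKM or in both. The bars of the set resemble those of the 508 transcripts within both ranges more than those of all transcripts.

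Within the set, the sheep ranked the genes alike. Pearson's r between the changes of sheep 1 and sheep 2 was 0.84 across the 54 genes (0.64 across all tested transcripts), that of sheep 1 and 3 was 0.60 (0.37), and that of sheep 2 and 3 was 0.55 (0.30). The spread of the changes over the genes was widest in sheep 1 (SD 1.53), then sheep 2 (1.00) and sheep 3 (0.65). Sheep 2 thus had the lowest median change, and sheep 3 had nearly all genes above 0.

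**Figure D2:**
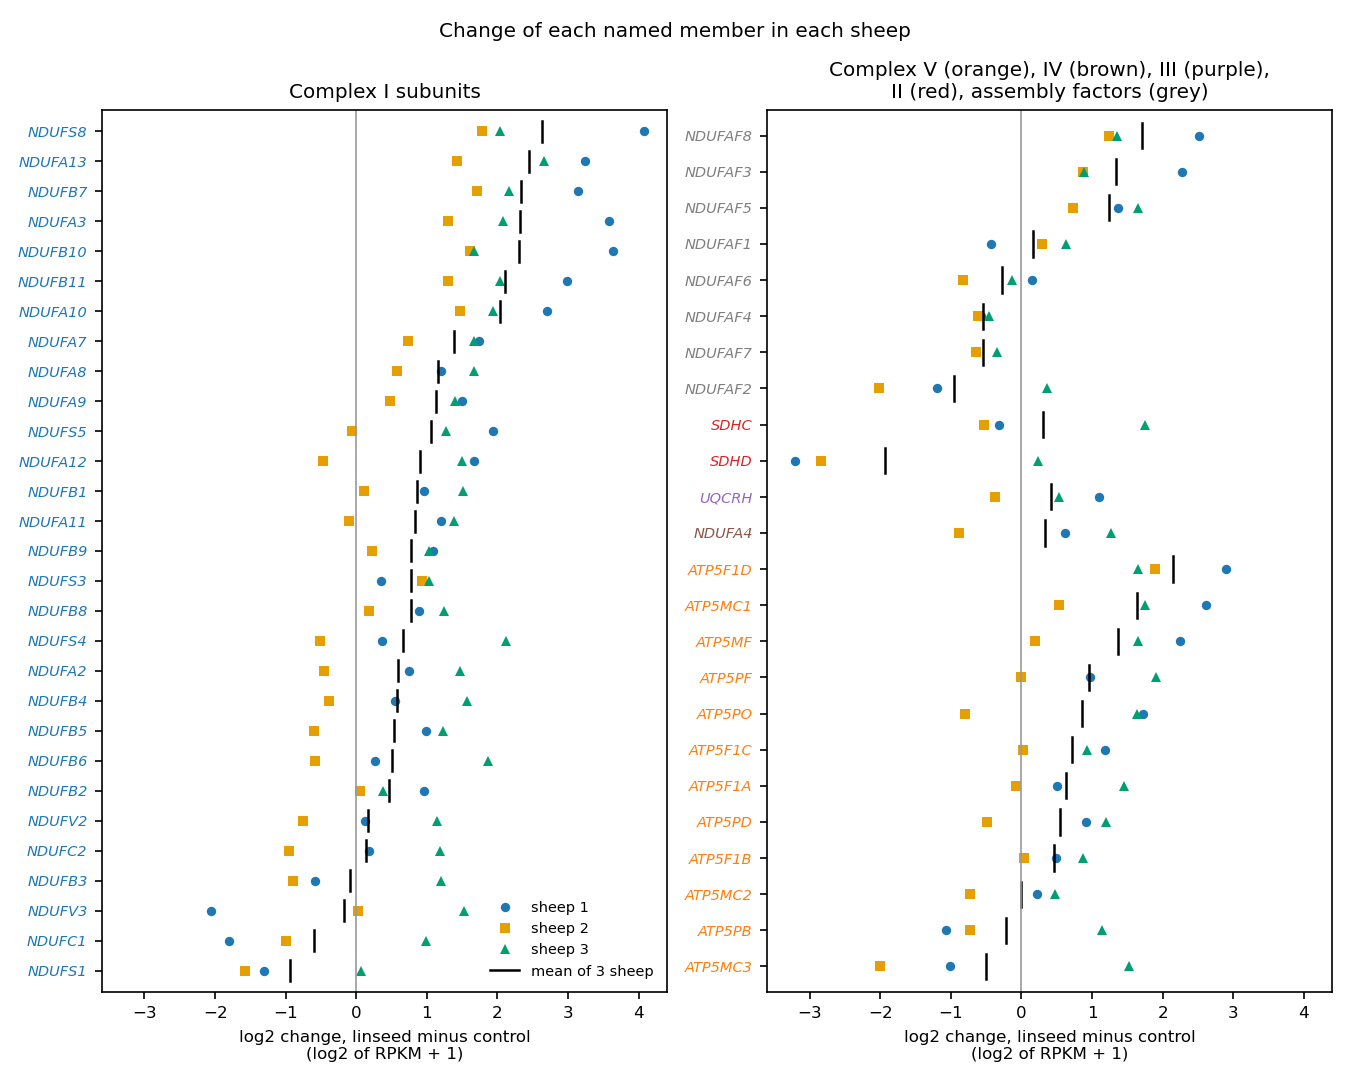
Change of log2(RPKM + 1), linseed minus control (horizontal axis), of the tested genes described by name (vertical axis) in sheep 1 (circles), sheep 2 (squares) and sheep 3 (triangles), with the mean as a bar. Complex I subunits are on the left and the other complexes and assembly factors on the right, and the squares of sheep 2 lie left of most other points.

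**Figure D3:**
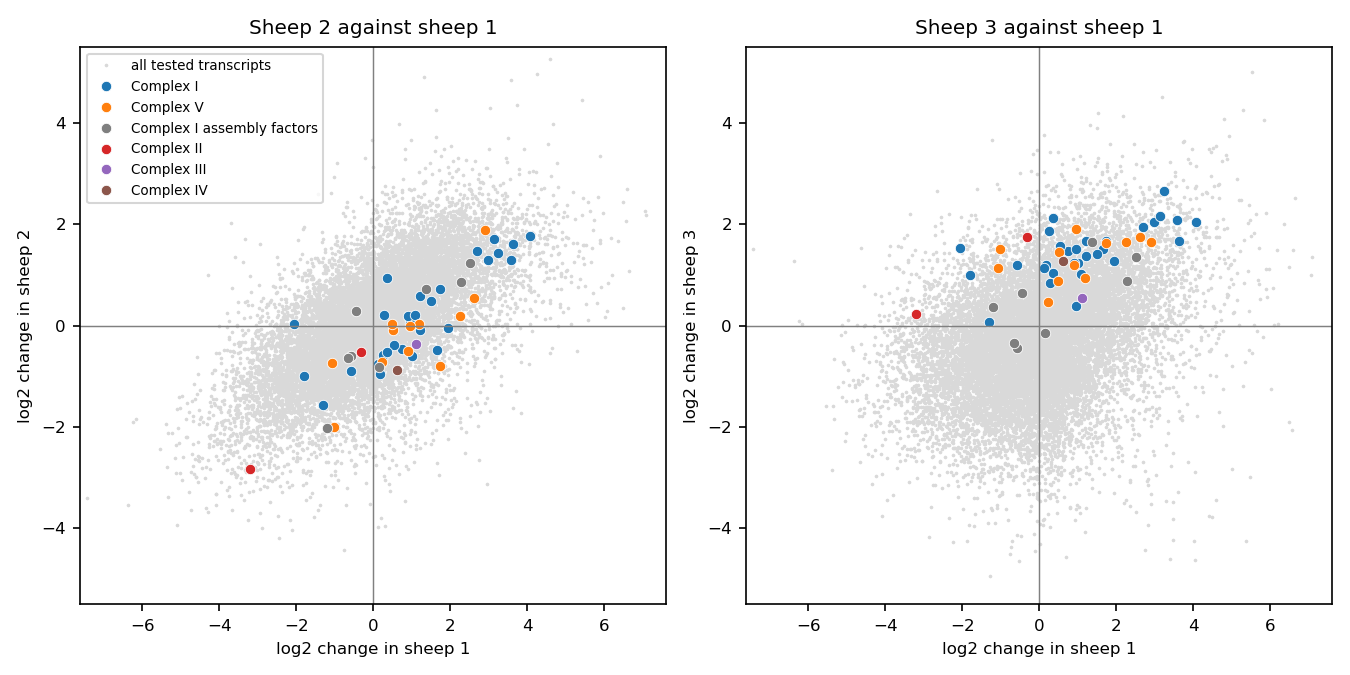
Change of log2(RPKM + 1) in sheep 2 (left) and sheep 3 (right) against that in sheep 1, for all 15891 tested transcripts (grey) and the 54 genes coloured by complex. On the left the changes of the set rise together (Pearson's r 0.84), with a narrower spread in sheep 2 than in sheep 1. On the right 51 of the 54 lie above 0 in sheep 3.

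Complex I is built of a hydrophilic arm, which holds the NADH site and the iron-sulfur clusters, and a membrane arm, which pumps protons. Its 30 measured subunits had a median change of 0.77 (0.98, 0.08 and 1.48 in sheep 1, 2 and 3). Of these, 16 (53.3%) were higher in all 3 sheep, 0 were lower in all 3, and in 14 (46.7%) every linseed library was above every control. The same shares were 23.0%, 26.2% and 13.3% over all tested transcripts. Among the 508 transcripts in the middle length and abundance ranges of the set, 51.4% were higher and 39.4% above. All 30 were higher in sheep 3, 26 in sheep 1 and 17 in sheep 2. The sum of their RPKM made up 0.0975%, 0.224% and 0.152% of all RPKM in controls and 0.299%, 0.317% and 0.364% with linseed, so each linseed library exceeded each control. With milk proteins left out, the shares were 0.236%, 0.377% and 0.165% against 0.458%, 0.445% and 0.371%, where linseed sheep 3 lay just under control sheep 2.

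The core subunits of complex I described here, those conserved from bacteria, differed widely from one another. NDUFS8 (XM_012102192.2), which carries iron-sulfur clusters on the path to ubiquinone, had 16.8, 58.7 and 30.7 RPKM in controls of sheep 1, 2 and 3 and 298, 203 and 129 RPKM with linseed. The lowest linseed library was above the highest control. The means were 35.4 ± 21.4 RPKM (SD, n = 3) in controls and 210.3 ± 84.9 RPKM (SD, n = 3) with linseed, and the log2 change was 2.63 ± 0.66 (adjusted p = 0.263 by limma without the block). A value after ± beside a log2 change is the SE of limma without the block, which does not use the pairing by sheep. Across 24 other settings that change ranged from 1.91 to 3.07. By RPKM NDUFS8 ranked 38, 30 and 26 among the 55 genes in controls and 6, 11 and 19 with linseed.

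NDUFS1, the largest core subunit, which receives the electrons from the NADH site, showed the other direction in 2 sheep. Its RPKM was 3.59, 7.25 and 9.34 in controls and 0.858, 1.77 and 9.78 with linseed. Sheep 1 and 2 were low with linseed and sheep 3 was not, so the groups overlapped; the log2 change was -0.94 ± 0.74. NDUFS1 was also the longest transcript of the set, at 4718 nt, and the least abundant complex I subunit. NDUFS3, a subunit of the hydrophilic arm, had 24.2, 27.2 and 19.5 RPKM against 31.2, 53.0 and 40.7, without overlap (0.77 ± 0.57). NDUFV2, an iron-sulfur subunit next to the NADH site, had 16.8, 33.9 and 17.9 RPKM against 18.3, 19.6 and 40.6, and its log2 change of 0.17 ± 0.62 took either sign under other settings. These core subunits differed from each other in direction in sheep 1 and 2, although each enters the complex once. In sheep 3 all of them were higher, and no difference between subunits was tested.

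The same values can be read as ratios between core subunits within a library. NDUFS8 had 4.67, 8.11 and 3.29 times the RPKM of NDUFS1 in controls and 348, 115 and 13.2 times with linseed, where NDUFS1 held 20, 50 and 919 reads. Against NDUFS3 it had 0.693, 2.16 and 1.58 times in controls and 9.57, 3.84 and 3.17 times with linseed. A ratio taken within a library does not depend on the library total, and in both pairs every linseed value was above every control value. The pairs were chosen after their values were seen and are given without a test.

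**Figure D4:**
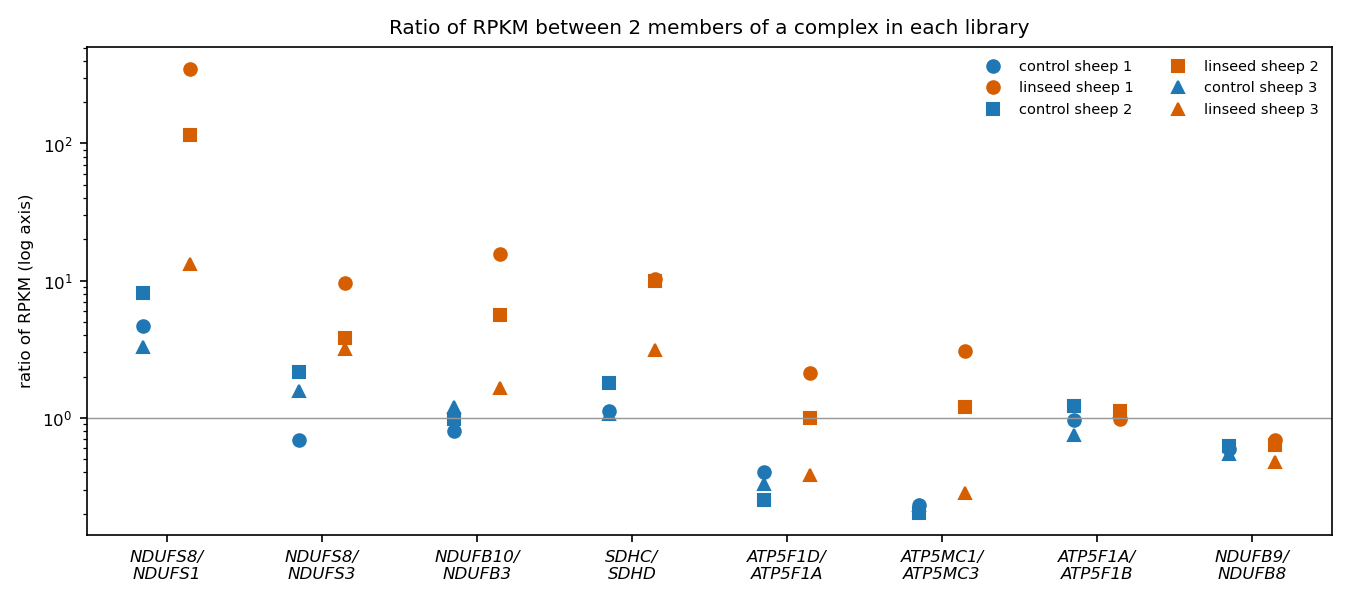
Ratio of RPKM between 2 subunits of a complex (log axis) in each control library (blue) and each linseed library (orange), with a symbol for each sheep. NDUFS8/NDUFS1, NDUFS8/NDUFS3, NDUFB10/NDUFB3 and SDHC/SDHD lie higher in every linseed library than in every control, whereas ATP5F1A/ATP5F1B and NDUFB9/NDUFB8 stay between 0.473 and 1.22 throughout.

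The 25 accessory subunits of complex I, which stabilise the core and are particular to eukaryotes, had a median change of 0.83. NDUFA13 (XM_004008401.2), also known as GRIM-19, was among the highest. It had 32.2, 106 and 32.7 RPKM in controls and 313, 287 and 211 with linseed, means of 56.9 ± 42.4 and 270.4 ± 52.8 RPKM (SD, n = 3). The groups were well apart, and the log2 change was 2.44 ± 0.66. NDUFA3, a small membrane arm subunit, had 15.6, 72.0 and 25.1 RPKM against 196, 178 and 109 (2.32 ± 0.69), and NDUFA10 had 11.6, 25.3 and 15.7 against 80.8, 72.0 and 63.3 (2.04 ± 0.58). In NDUFA10 the linseed libraries were nearly level and all were above the controls.

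Of the membrane arm subunits of the NDUFB series, 3 stood with the highest of the set. NDUFB7 had 45.6, 99.7 and 35.3 RPKM in controls and 411, 329 and 161 with linseed (log2 change 2.34 ± 0.66). NDUFB10 had 23.9, 74.3 and 40.4 against 308, 229 and 130.2 (2.30 ± 0.66), and NDUFB11, the most abundant complex I subunit by mean RPKM, had 44.6, 130.3 and 47.8 against 361, 322 and 199 (2.11 ± 0.65). In each of the 3 the linseed libraries were all higher than the controls, sheep 1 gave the widest gap, and the adjusted p was 0.263 by limma without the block and 0.0517 to 0.0627 with it.

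Other subunits of the same arm did not share this pattern. NDUFB3 had 29.8, 76.2 and 33.8 RPKM in controls and 19.6, 40.6 and 79.0 with linseed, which overlapped (log2 change -0.09 ± 0.69). NDUFB10 accordingly had 0.802, 0.975 and 1.2 times the RPKM of NDUFB3 in controls and 15.7, 5.64 and 1.65 times with linseed. NDUFB7 had 3.97, 1.83 and 1.39 times that of NDUFB5 in controls and 17.2, 9.31 and 2.63 times with linseed, higher within each sheep but with overlap between the groups. By contrast NDUFB9 had 0.544 to 0.62 times the RPKM of NDUFB8 in controls and 0.473 to 0.684 times with linseed, a pair that kept its proportion while both members were higher with linseed in each sheep.

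Across the subunit series, the 9 NDUFA members of complex I had a median change of 1.15, and all 9 were above 0. The 11 NDUFB members had a median of 0.77 with 10 above 0, the 6 NDUFS members 0.71 with 5 above 0, the 2 NDUFV members -0.00 and the 2 NDUFC members -0.23. NDUFC1, a membrane arm subunit, had 18.9, 52.4 and 29.2 RPKM in controls and 4.71, 25.7 and 58.9 with linseed, low in sheep 1 and 2 and high in sheep 3 (log2 change -0.60 ± 0.85). Its value in linseed sheep 1 rests on 13 reads. NDUFV3, an accessory subunit near the NADH site, had 13.9, 13.3 and 6.25 RPKM against 2.59, 13.6 and 19.9 (-0.17 ± 0.74), with 11 reads in its lowest library. The remaining accessory subunits, NDUFA2, NDUFA7, NDUFA8, NDUFA9, NDUFA11, NDUFA12, NDUFB1, NDUFB2, NDUFB4, NDUFB5, NDUFB6, NDUFB8, NDUFB9, NDUFC2, NDUFS4 and NDUFS5, had log2 changes from 0.14 (NDUFC2) to 1.38 (NDUFA7). NDUFA7, NDUFA8, NDUFB1, NDUFB2, NDUFB8 and NDUFB9 of these showed no overlap, with linseed above. Over all 25 accessory subunits 48.0% did so, against 13.3% of all tested transcripts.

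**Figure D5:**
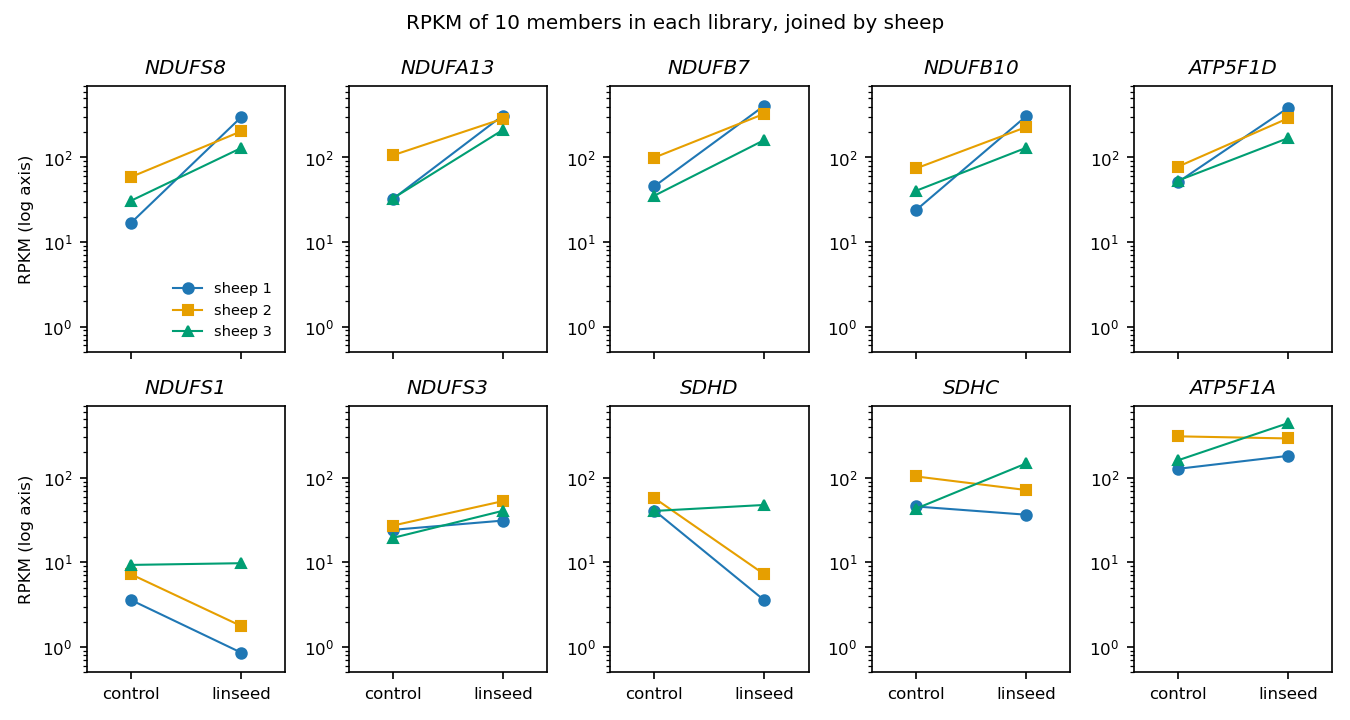
RPKM (log axis) of 10 genes in each library, with the control and linseed values of a sheep joined by a line. The 5 genes of the upper row have every linseed library above every control library, and in the lower row NDUFS1 and SDHD are low with linseed in sheep 1 and 2 but not in sheep 3.

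The complex I assembly factors, which build the complex without staying in it, were scarce, with mean RPKM from 1.08 (NDUFAF1) to 37.4 (NDUFAF8). Their median change was -0.05, with 4 above 0 and 4 below. NDUFAF8, which works with NDUFAF5, had 13.6, 25.9 and 10.7 RPKM in controls and 82.8, 62.3 and 29.0 with linseed (log2 change 1.70 ± 0.65). NDUFAF5, which modifies an arginine of a core subunit, had 1.07, 4.31 and 1.56 RPKM against 4.33, 7.81 and 7.03 (1.25 ± 0.60). NDUFAF3 had 0.886, 5.01 and 4.92 RPKM against 8.12, 9.95 and 9.94 (1.34 ± 0.64). In these 3 of 8 factors (37.5%) every linseed library was above every control, against 13.3% of all tested transcripts. For NDUFAF5 this was only by 4.330 RPKM (22 reads) in linseed sheep 1 against 4.308 RPKM (39 reads) in control sheep 2, less than the worth of 1 read.

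NDUFAF4, which acts together with NDUFAF3 on the hydrophilic arm, was on the other side. It had 1.28, 2.09 and 2.35 RPKM in controls and 0.532, 1.03 and 1.45 after linseed. The log2 changes of the 3 sheep were -0.57, -0.61 and -0.45 (mean -0.54 ± 0.49, and SE 0.45 with the block), with 6 reads in its lowest library. The groups overlapped through linseed sheep 3 and control sheep 1. They were apart, with linseed below, under each other scaling and the length correction. NDUFAF7, a methyltransferase, had 1.83, 1.70 and 4.72 RPKM against 0.805, 0.721 and 3.51 (-0.55 ± 0.60), and its most abundant deposited transcript carries a non-coding RefSeq prefix. NDUFAF2, a paralog of the subunit NDUFA12, had 1.79, 3.76 and 0.943 RPKM against 0.213, 0.176 and 1.51, with 2 reads in its lowest library (-0.95 ± 0.55). NDUFAF1 and NDUFAF6 had log2 changes of 0.16 ± 0.49 and -0.27 ± 0.53, within the spread between sheep.

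Complex II, succinate dehydrogenase, also belongs to the citric acid cycle, and its 2 measured genes encode the pair of membrane anchors that hold its heme and ubiquinone site. SDHD (XM_004016023.2) had 41.1, 57.6 and 40.6 RPKM in controls and 3.55, 7.21 and 47.8 with linseed. Sheep 1 and 2 had log2 changes of -3.21 and -2.83, while sheep 3 had 0.23, so the groups overlapped. The log2 change was -1.94 ± 0.83 (unadjusted p = 0.0393, adjusted p = 0.304 by limma, and 0.0973 with the sheep as a block), and linseed sheep 1 held 24 reads. SDHC had 45.8, 103.8 and 43.2 RPKM in controls and 36.6, 71.7 and 148 with linseed (0.30 ± 0.69). SDHC thus had 1.12, 1.8 and 1.07 times the RPKM of its partner in controls and 10.3, 9.95 and 3.1 times with linseed, although the 2 proteins form a heterodimer.

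Complex III was represented by UQCRH, the hinge protein next to cytochrome c1, which was the most abundant gene of the whole set at a mean of 308 RPKM. It had 113, 454 and 280.3 RPKM in controls and 244, 350.4 and 407 with linseed, which overlapped (log2 change 0.42 ± 0.67). NDUFA4, first described in complex I and now assigned to complex IV, had 91.2, 271 and 95.2 RPKM against 140.1, 147 and 231 (0.34 ± 0.65). In both, sheep 2 was lower and sheep 1 and 3 were higher with linseed, and quantile normalization and the length correction turned the sign of the mean change. NDUFA4L2, its paralog known from hypoxic cells, was at 0 in all controls and in linseed sheep 2, and had 1 read in each of linseed sheep 1 (0.412 RPKM) and sheep 3 (0.102 RPKM). It was not tested.

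Complex V, the ATP synthase, consists of a catalytic head, a rotating central stalk with its ring of c subunits, and a peripheral stalk. Its 12 measured subunits had a median change of 0.67 (0.94, -0.05 and 1.49 in sheep 1, 2 and 3). Of these, 5 (41.7%) were higher in all 3 sheep. By their most abundant transcripts 4 (33.3%) had no overlap, ATP5F1C, ATP5F1D, ATP5MC1 and ATP5MF. These shares lie above those of all tested transcripts (23.0% and 13.3%). They lie below those of the 508 transcripts in the middle length and abundance ranges of the set (51.4% and 39.4%). The median of mean RPKM over the 12 subunits, 153, is above that abundance range, so the 508 transcripts are not matched to complex V. Together the 12 subunits made up 0.113%, 0.267% and 0.209% of all RPKM in controls and 0.173%, 0.226% and 0.376% with linseed. These overlapped, unlike the shares of complex I.

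The subunits alpha (ATP5F1A) and beta (ATP5F1B) of the catalytic head were among the most abundant genes of the set. ATP5F1A had 128, 309 and 161 RPKM in controls and 182, 292 and 443 with linseed (log2 change 0.63 ± 0.64). ATP5F1B had 131, 253 and 214 RPKM against 185, 260.0 and 393 (0.47 ± 0.61). Their ratio, alpha over beta, was 0.971, 1.22 and 0.752 in controls and 0.985, 1.12 and 1.13 with linseed, so the pair that alternates in the head kept similar levels in every library. The gamma subunit of the central stalk, ATP5F1C, had 73.6, 161 and 100.8 RPKM against 168, 164 and 193 (0.71 ± 0.59). A second ATP5F1C transcript had 20.0, 59.7 and 12.4 RPKM against 47.1, 69.5 and 65.5, with overlap.

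The delta subunit of the central stalk, ATP5F1D (XM_004008775.3), stood apart from these. It had 51.0, 77.7 and 53.2 RPKM in controls and 385, 290.4 and 169 with linseed, means of 60.6 ± 14.8 and 282 ± 108 RPKM (SD, n = 3). All linseed libraries were above all controls (log2 change 2.14 ± 0.60, adjusted p = 0.263 by limma). It had 0.4, 0.251 and 0.33 times the RPKM of ATP5F1A in controls and 2.12, 0.994 and 0.382 times with linseed, the last of these within the control range. Its rank within the set went from 12, 21 and 13 in controls to 2, 5 and 14 with linseed.

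Subunit c, which forms the rotating ring, is encoded by 3 genes whose mature proteins are identical. ATP5MC1 had 15.5, 52.3 and 17.0 RPKM in controls and 100.1, 76.5 and 59.4 with linseed, without overlap (log2 change 1.63 ± 0.65). ATP5MC2 had 111, 337 and 230.0 RPKM against 129, 204 and 319 (-0.01 ± 0.66), and ATP5MC3 had 66.4, 258 and 73.0 against 32.5, 63.8 and 211 (-0.50 ± 0.81), both with overlap. ATP5MC2 was the most abundant of the 3 in each library, with 52.0% to 71.9% of their summed RPKM in controls and 49.4% to 59.2% with linseed. The share of ATP5MC1 was 8.04%, 8.08% and 5.31% in controls and 38.2%, 22.3% and 10.1% with linseed, so it was higher in every sheep. That of ATP5MC3 was 34.5%, 39.9% and 22.8% against 12.4%, 18.6% and 35.8%, below its control in sheep 1 and 2 and above it in sheep 3. These shares use the most abundant transcript of each gene. A second ATP5MC1 transcript had 4.67, 27.0 and 11.8 RPKM in controls and 25.9, 26.4 and 37.0 with linseed, with overlap. In sheep 2 it was slightly lower with linseed. Reads shared between these related transcripts, or with processed copies elsewhere in the genome, were divided by a method that is not given in the sources used here.

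In the peripheral stalk, ATP5PO (OSCP) had 16.9, 86.0 and 20.7 RPKM in controls and 58.2, 49.0 and 66.2 with linseed (0.85 ± 0.70), and ATP5PB, the b subunit, had 128, 193 and 97.7 against 60.5, 115 and 216 (-0.22 ± 0.66). ATP5PO was higher with linseed in sheep 1 and 3 and ATP5PB only in sheep 3. ATP5PD and ATP5PF, the other stalk subunits measured, had log2 changes of 0.54 ± 0.65 and 0.96 ± 0.64, with overlap. The value of ATP5PF is that of its most abundant transcript. Its other deposited transcripts, with means of 29.8 and 15.1 RPKM, went the other way, with log2 changes of -1.0026 and -0.2559. The membrane subunit f, ATP5MF, had 50.7, 212 and 72.0 RPKM against 243, 242 and 229, nearly level with linseed and above every control (1.36 ± 0.66).

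Taking the set as a whole, its RPKM summed to 0.249%, 0.597% and 0.448% of all RPKM in controls and to 0.521%, 0.613% and 0.864% with linseed, an overlap through control sheep 2. Without milk proteins the shares were 0.602%, 1.01% and 0.486% against 0.80%, 0.862% and 0.88%, and the highest value was then a control. The order within the set differed between libraries as well. UQCRH, ATP5F1A, ATP5F1B and ATP5MC2 were among the 5 most abundant genes of the set in control sheep 1 and 3, and with linseed in sheep 3. With linseed NDUFB7, ATP5F1D and NDUFB11 took 3 of the first 5 places in sheep 1 and in sheep 2.

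Genes around the respiratory chain were described by lists that are not part of the set. No gene of any list passed limma with or without the block. Beside the counts in all 3 sheep given below, 23.0% of all tested transcripts were higher in all 3 and 26.2% lower. Of the assembly factors of complex I outside the NDUF symbols, 2 of 6 tested were higher in all 3 sheep. These were ECSIT (5.73, 5.88 and 5.37 RPKM in controls against 24.2, 28.2 and 17.3; log2 change 1.84 ± 0.56) and DMAC1 (1.60 ± 0.65). Their median was 0.00. For complex II assembly, the 3 tested genes had a median of 0.67, with SDHAF3 at 1.25 ± 0.67 and SDHAF1 at 0.67 ± 0.83. TTC19, the only complex III factor tested, had 0.31 ± 0.57. In complex IV assembly the 3 tested genes had a median of 0.58, with CMC1 at 1.47 ± 0.72 and CMC2 at 0.58 ± 0.64. In complex V assembly FMC1 had 1.46 ± 0.62 and TMEM70, which helps to build the c ring, -0.87 ± 0.76.

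The list of mobile carriers and electron donors, which holds genes that make ubiquinone (COQ and PDSS) and genes that pass electrons to it, had a median of 0.12 over 12 tested genes. Of these, 5 were higher in all 3 sheep, among them the synthesis genes COQ6 and COQ9, and 1, the synthesis gene PDSS1, was lower in all 3. ETFB, a subunit of the electron transfer flavoprotein of fatty acid oxidation, had 19.8, 79.0 and 58.5 RPKM in controls and 266, 274 and 179 with linseed (log2 change 2.35 ± 0.67), and every linseed library was above the controls. Its partner subunit ETFA had 0.10 ± 0.64 and ETFDH, which takes their electrons to ubiquinone, -0.22 ± 0.75. DHODH of pyrimidine synthesis had 0.99 ± 0.56. The citric acid cycle with pyruvate dehydrogenase had a median of -0.74 over 14 tested genes (-1.14, -0.66 and -0.01 in sheep 1, 2 and 3), and 7 were lower and 5 higher in all 3 sheep. PDHA1, the catalytic subunit of pyruvate dehydrogenase, had 10.3, 8.65 and 20.6 RPKM in controls and 0.653, 2.70 and 4.76 with linseed (-2.02 ± 0.66), whereas SUCLG1 of succinyl-CoA synthetase had 1.52 ± 0.59.

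The carriers that exchange ATP, ADP and phosphate across the inner membrane had a median of -0.77 over 4 genes, with SLC25A4 at -0.78 ± 0.58 and SLC25A6, the most abundant of them, at 0.71 ± 0.57. Genes of mitochondrial biogenesis and mtDNA expression had a median of -0.59 over 10, 1 higher and 4 lower in all 3 sheep, with TFB2M, a factor of mitochondrial transcription, at -1.70 ± 0.59 and the RNA-binding protein SLIRP at 1.10 ± 0.63. Import genes and porins had 0.27 over 11, with TOMM40 at 1.29 ± 0.58 and VDAC1 at -1.58 ± 0.83. Glycolysis had a median of 0.59 over 10, with 5 higher and 2 lower in all 3 sheep. GAPDH had 262, 1514 and 844 RPKM in controls and 2602, 3883 and 4500 with linseed (2.36 ± 0.72), and the aldolase gene ALDOC had 2.01 ± 0.63. The hexokinase genes HK2 (-1.80 ± 0.70) and HK1 (-1.59 ± 0.63) were the 2 lower in all 3 sheep. COQ6, COQ9, PDSS1, ETFA, ETFDH, HK1 and HK2 were named after their values were seen.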

How the data were processed

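RNA-seq of milk somatic cells from 3 control and 3 linseed samples was deposited by the authors as 1 table of RPKM values with decimal commas (49705 RefSeq transcripts). Trimming used Trimmomatic 0.33 (per the submitters' processing notes), whereas aligner, build and counting method were not given in the sources used here. Symbols came from a RefSeq table of assembly ARS-UI_Ramb_v3.0, used for names alone, and matched 15836 transcripts without their version. Library totals, reads and lengths were recovered from the RPKM steps (tolerance 0.002 reads), and the reads found summed to 99.43% to 99.82% of the totals; the method was tested on simulated data.

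Transcripts that averaged at least 1 RPKM were compared as log2(RPKM + 1) with limma 3.58.1 (R 4.3.3, mean-variance trend, Benjamini-Hochberg over all 15891), so a fold change is on that scale and is understated for low transcripts. Values after ± are SE of the fit without the block for log2 changes and SD for RPKM means. Same-numbered libraries came from the same ewe, by the animal identifiers in the labels, so the sheep as a block was a second fit. Their deviations from the group means correlated at 0.18, 0.25 and 0.40 in sheep 1, 2 and 3. Libraries of different ewes correlated at -0.40 to 0.24. The control of sheep 1 correlated more with the linseed library of sheep 2 (0.24) than with its own. The members, gene lists, marker lists and tests were chosen with earlier results of these data known. Genes named with values were core subunits, isoform families, NDUFAF1 to NDUFAF8, the most abundant member, the 3 of smallest p and every call in each complex, members opposed to their complex in every sheep, and the 2 of smallest p in each list. Other members were named after their values were seen. A member that the rule takes is counted but not reported by name here.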

Additional observations from a re-analysis of the deposited data

How the results depend on the processing

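Over 24 other settings, 1290 values of single genes were computed, and 62 changed sign, in 16 of the 54 genes; 33 genes stayed higher and 5 stayed lower throughout. The replicate block gave 203 transcripts called higher and 213 lower by limma against 0 and 0 without it, and 2 genes of the set called higher against 0. Leaving milk proteins out and adding the replicate block, the counts became 36 and 116 transcripts and 0 genes of the set. That combination, the block with the other 2 scalings, and leaving out both libraries of a sheep were chosen after seeing the data. The block changed no other call in the set. Leaving out 1 library gave no call; the median of the set was then 0.39 to 1.03, and without both libraries of sheep 1, 2 or 3 it was 0.61, 1.06 and 0.41. The median of all tested transcripts moved from -0.12 to -0.28 without milk proteins, to -0.01 with quantile normalization and to -0.00 with the length correction, and that of the set to 0.41, 0.38 and 0.36.

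Genes higher in all 3 sheep numbered 15 (background 19.2%) rather than 24 (23.0%) without milk proteins, with or without the block. Genes lower in all 3 numbered 0 rather than 2 at a mean of at least 5 RPKM, and 1 with RPKM summed per gene or with the length correction, with or without the block. Genes with every linseed library above numbered 9 with median-of-ratios scaling (background 12.7%), 8 with quantile normalization (14.0%) and 7 without milk proteins (10.3%), rather than 21 (13.3%). Those below numbered 1 rather than 0 in these 3 settings and with the length correction. All of this held with or without the block. Those above numbered 20 with RPKM summed per gene (background 13.5%) and 15 with the length correction (14.7%). Background shares for the lower and below counts under these settings are not given here. The median of the assembly factors was 1.52 rather than -0.05 at a mean of at least 5 RPKM, which leaves NDUFAF3 and NDUFAF8.

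Signs turned as follows, in log2 changes. Quantile normalization, with or without the block, gave SDHC -0.0037, UQCRH -0.16, ATP5F1B -0.12, NDUFC2 -0.067 and NDUFA4 -0.15. The length correction, with or without the block, gave NDUFB6 -0.058, NDUFA4 -0.22, NDUFC2 -0.39 and UQCRH -0.13. Without milk proteins, with or without the block, NDUFV2 was -0.067 and NDUFC2 -0.098. ATP5MC2 was 0.0056 with median-of-ratios scaling, with or without the block, 0.011 with RPKM summed per gene and 0.038 with limma-voom on recovered reads, where NDUFB3 was 0.033; with the block NDUFV3 was 0.094. Without sheep 1, ATP5PB was 0.20, NDUFV3 0.78 and NDUFB3 0.16. Without sheep 2, ATP5MC2 was 0.35, ATP5MC3 0.26, NDUFAF6 0.0079, ATP5PB 0.036 and NDUFB3 0.31. Without sheep 3, NDUFV2 was -0.32, NDUFC2 -0.39, NDUFB6 -0.16, NDUFA4 -0.13, SDHC -0.42, NDUFAF1 -0.075 and NDUFS4 -0.079. Leaving out each library in turn gave ATP5MC2 -0.45 to 0.35, ATP5MC3 -1.22 to 0.13, ATP5PB -0.67 to 0.24, NDUFAF1 -0.12 to 0.49, NDUFB3 -0.57 to 0.41, NDUFC1 -1.36 to 0.33, NDUFC2 -0.18 to 0.48, NDUFV2 -0.19 to 0.48, NDUFV3 -0.68 to 0.59, SDHC -0.20 to 0.79 and UQCRH -0.13 to 0.87. The causes of these moves were not tested. Depth limits the scarce assembly factors most, whose lowest libraries held 2 to 71 reads.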
